A study of Mus musculus with 8 samples.

Results

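The complement and coagulation factors described here are 35 genes of the liver RNA-Seq table, taken as the rows whose gene symbol is on a fixed list of members, out of 25010 genes in all. All 35 were found. Complement holds 16 of them and coagulation 19, and the 2 lists are reported apart. The RNA was from left liver lobes of C57BL/6 mice at an age of 8 wk, after a fast of 4 to 6 h. WT mice were compared with LXRDKO mice, which lack LXRα (Nr1h3) and LXRβ (Nr1h2), a pair of oxysterol-activated nuclear receptors. There were 2 mice of each genotype and 1 library per mouse. The deletion is in the whole body, so a difference in the liver is not tied to a cell type or to the liver itself. Values are normalized counts, which are reads counted on a gene divided by a size factor for the library, and 55772659, 72842744, 63681131 and 56281367 reads lay on genes in WT livers 1 and 2 and LXRDKO livers 1 and 2.

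Hepatocytes make most of the complement and clotting proteins of the plasma. Complement is a cascade of proteases and binding proteins. Antibody, mannose-type sugars or spontaneous turnover start it, convertases then cleave C3 and C5, and a pore of terminal components forms in the target membrane. Coagulation is a second protease cascade, which ends with thrombin turning fibrinogen into fibrin, and it is held in check by anticoagulants and undone by plasmin.

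The deleted genes checked the labels. Nr1h3 measured 5785 and 5322 normalized counts in WT and, in LXRDKO, 1712 and 1826, and Nr1h2 had 2987 and 3110.0 in WT against 925 and 1003 in LXRDKO. Each LXRDKO liver was low in both genes. Their log2 fold changes were −1.65 and −1.66 (adjusted P = 0.0147 for each, limma). With LXRDKO liver 1 or 2 left out the adjusted P values were 0.0953 and 0.0813 for Nr1h3 and 0.0952 and 0.0768 for Nr1h2, and over all settings they ran from 3.45e-28 to 0.212 and from 3.87e-26 to 0.212. The reads that remained cannot be placed on exons from counts per gene. Hepatocyte markers were present at a high level. The 8 markers made up 10.9% and 12.8% of the normalized counts of the WT livers and 11.9% and 11.1% of those of the LXRDKO livers, with albumin (Alb) as the most abundant, at 4940806 and 5959085 in WT and 5214024 and 4644569 in LXRDKO. Of the 8, DESeq2 called Tat, a tyrosine-degrading enzyme (adjusted P = 0.00675), which limma (0.242) and edgeR (0.226) did not (range 0.00675 to 0.652 over all settings), at 69293 and 71976 in WT and 95645 and 127585 in LXRDKO.

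Of the 35 complement and coagulation members, 33 had a log2 fold change between −0.30 and 0.30 in LXRDKO against WT liver. So did 10618 of all 15578 genes tested, and 3017 of the 3720 with at least the least abundant member's level. With the threshold on adjusted P at 0.05, the limma test called 0 of the 16 complement members and 0 of the 19 coagulation members, where it called 50 of 15578 genes tested (0.321%). The count over all genes moved with single libraries, to 265 and 157 without WT liver 1 or 2 and to 2 and 4 without LXRDKO liver 1 or 2. Of the members, C6 alone was called in any of these, without WT liver 1. All 35 members had a mean count of 10 or more, the level required for testing. The edgeR test on recovered reads also called 0 members, against 0.315% of all genes. DESeq2, the tool the authors used, called 1 member, the complement gene Mbl2, as higher in LXRDKO and 0 as lower. Over all genes it called 1.56% as higher and 2.03% as lower. At an unadjusted limma P value under 0.05 there were 1 complement and 2 coagulation members, 3 of 35, where 13.3% of all genes passed.

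The median log2 fold change was −0.090 over the complement members and −0.051 over the coagulation members, beside −0.0046 over all genes tested, and with libraries scaled to their totals, which raised all genes alike, the 3 medians were −0.035, 0.0036 and 0.050. Values lay below 0 for 13 of 16 complement members and 12 of 19 coagulation members (11 and 9 with library totals, before that shift is taken off). The directions depended on WT liver 1. Without it the medians were 0.0078 and 0.0019, beside −0.0027 over all genes, and 8 complement members and 9 coagulation members lay below 0.

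The LXRDKO livers both exceeded both WT livers in 1 complement and 3 coagulation members, 4 of 35 against 21.7% of all genes, and lay under both in 5 and 6 members, 11 of 35 against 23.0% of all genes. Genes as abundant as the members leaned the same way. Among the 3720 tested genes with at least the mean count of the least abundant member, a level chosen after the values were seen, the shares were 14.4% above and 34.9% below, and the median log2 fold change was −0.058. The members' counts were close to these.

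Intervals show how large a change the data allow. The 95% interval of the log2 fold change lay within −1 and 1, that is, within a doubling or halving, for 14 of 16 complement members and 19 of 19 coagulation members. The exceptions were Mbl2 and C6. The share was 68.5% among all genes and 93.7% among genes of at least the least abundant member's level. Permuting 2 and 2 livers exactly, two-sided, gives no P value under 0.333, so the limma P values and intervals rest on variances pooled across genes.

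**Figure D1:**
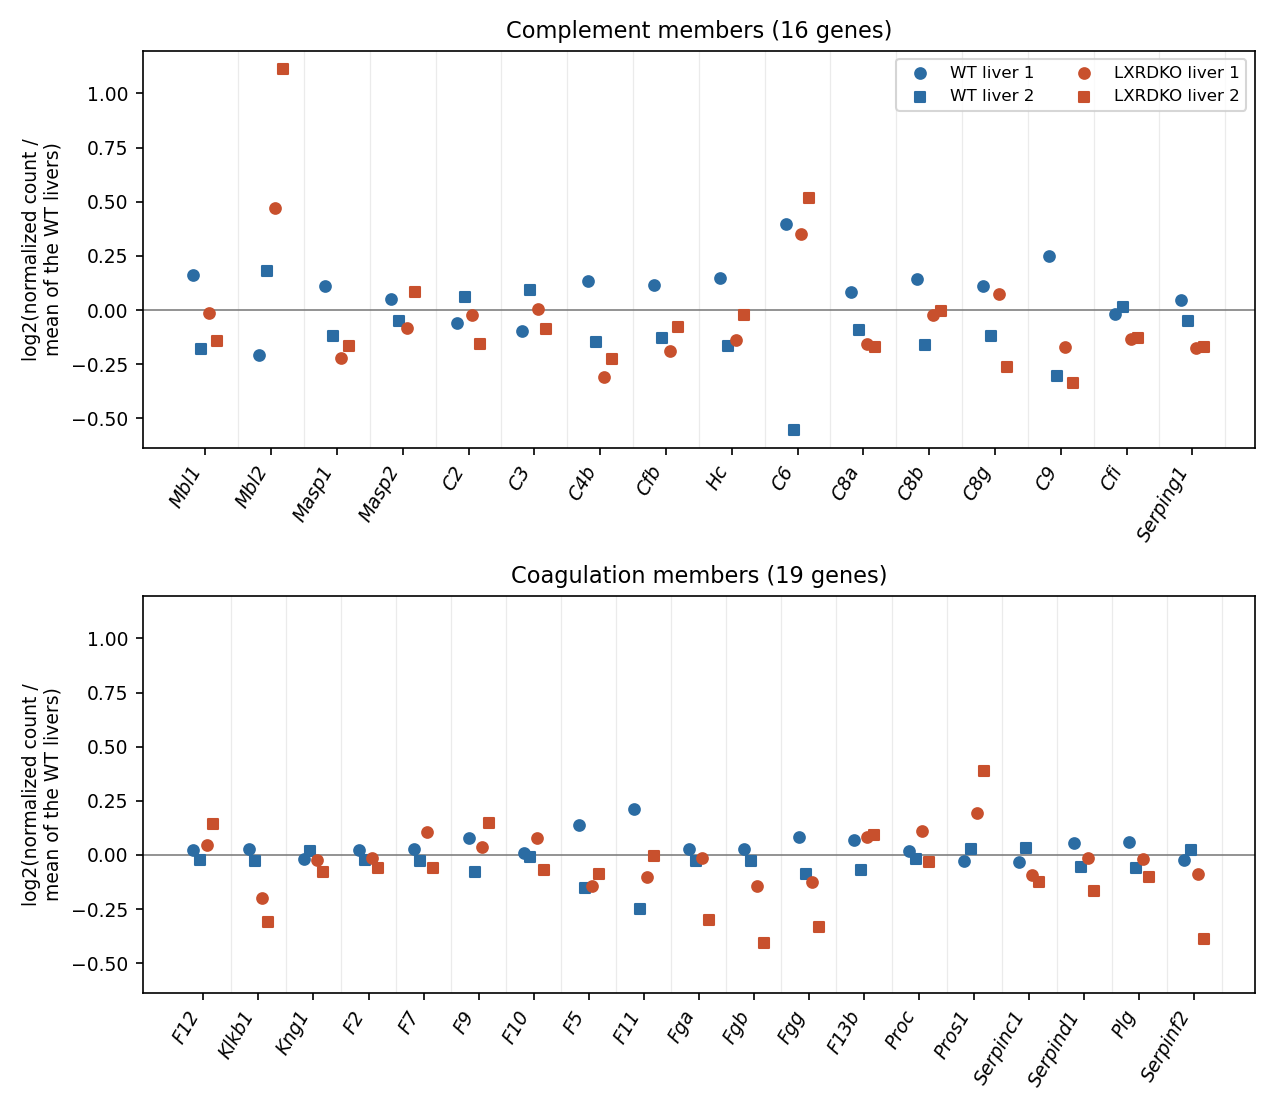
Level of each member in each liver, as log2 of its normalized count over the mean of the 2 WT livers, for complement (16 genes) and coagulation (19 genes). Blue points are WT, orange points are LXRDKO, circles are liver 1 and squares liver 2 of a genotype. Mbl2 in LXRDKO liver 2 is the highest point, at 1.11, and C6 in WT liver 2 the lowest, at −0.55.

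The lectin pathway held the largest difference. Mbl2 encodes mannose-binding lectin C, which recognizes sugars on microbes, and spans positions 30232942 to 30239687 of chromosome 19 (GRCm38). It measured 18471 and 24216 normalized counts in WT and, in LXRDKO, 29607 and 46195. The genotypes did not overlap, with LXRDKO higher and LXRDKO liver 2 far above LXRDKO liver 1. The means were 21344 ± 4062 in WT and 37901 ± 11729 in LXRDKO (SD, n = 2 each). On the log2 scale the difference was 0.81 (standard error 0.24, 95% interval 0.20 to 1.41, adjusted P = 0.271, limma). The DESeq2 estimate was 0.83 with an adjusted P value of 0.0148, and adjusted P values ranged from 0.0148 to 0.626 over all alternatives tried. Leaving out LXRDKO liver 2 gave 0.49 and leaving out LXRDKO liver 1 gave 1.13, so the size moved with the library while the sign did not.

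Its paralog Mbl1, which encodes mannose-binding lectin A, is on chromosome 14. Mbl1 measured 9781 and 7729 normalized counts in WT and, in LXRDKO, 8660.4 and 7941, with the genotypes overlapping. Per kilobase of exon, Mbl2 stood at 2.72 and 4.52 times Mbl1 in the WT livers and at 4.93 and 8.39 times in the LXRDKO livers. The ratio was thus higher in each LXRDKO liver than in either WT liver, though LXRDKO liver 1 was only slightly above WT liver 2. The lectin-associated proteases, which Mbl proteins activate, were not called by limma, edgeR or DESeq2. Masp1 measured 18127 and 15451 in WT and 14423 and 14979.8 in LXRDKO, a log2 fold change of −0.19 (95% interval −0.47 to 0.093, limma), and Masp2 had a log2 fold change of 0.0028 (−0.27 to 0.27). Both LXRDKO livers lay just below both WT livers in Masp1 and the genotypes overlapped in Masp2. The Masp1 value was −0.072 without WT liver 1 and −0.30 without WT liver 2.

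The set of RefSeq promoter sequences used here, on GRCm38.p6, covered 26 of the 35 members, as 250 bases before to 50 bases after the start of the gene. That set held no entry for C2, C4b, Cfb, Cfi, Serping1, Masp1, Kng1, Plg or Proc. The 250 bases before the starts of Mbl2 (chr19:30232678-30232927, plus strand) and Mbl1 (chr14:41151206-41151455, plus strand) are shown because DESeq2 called Mbl2 and not its paralog. Capitals mark identical bases in the stretch where the sequences align without gaps. It spans 45 bases with 38 identical (84.4%), from 85 to 41 bases before the start of Mbl2 and from 51 to 7 before that of Mbl1. Its longest unbroken run of 13 bases was present in 3 of 27025 promoters of the RefSeq table, those of Mbl1, Mbl2 and Slc25a53.
Mbl2: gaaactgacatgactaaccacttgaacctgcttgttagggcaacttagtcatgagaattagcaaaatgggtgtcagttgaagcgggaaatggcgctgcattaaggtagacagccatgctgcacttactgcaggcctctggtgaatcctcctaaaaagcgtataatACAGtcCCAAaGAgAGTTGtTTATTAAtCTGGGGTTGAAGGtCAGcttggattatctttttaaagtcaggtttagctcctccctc
Mbl1: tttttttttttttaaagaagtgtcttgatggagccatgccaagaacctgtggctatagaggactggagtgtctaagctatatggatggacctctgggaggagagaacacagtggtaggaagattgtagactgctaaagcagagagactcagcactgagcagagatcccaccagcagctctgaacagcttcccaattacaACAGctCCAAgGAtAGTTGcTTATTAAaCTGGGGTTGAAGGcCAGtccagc

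The convertase genes encode the central enzymes of the cascade. C3, the component that all pathways cleave, was the most abundant complement member at 123738 normalized counts per kilobase of exon and ranked 24 of all genes tested on that scale. It measured 603120.2 and 688125 normalized counts in WT and, in LXRDKO, 647499 and 606801. The highest liver was 1.14 times the lowest and the genotypes overlapped, with a log2 fold change of −0.040 (95% interval −0.73 to 0.65, limma). The limma variances are drawn toward those of genes of like abundance, and this interval was wider than the range of the 4 livers.

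C4b, which encodes the C4 protein of the classical and lectin pathways, measured 81169.5 and 66756 in WT and 59743 and 63291 in LXRDKO. The LXRDKO livers were lower, by less than the gap between the WT livers, at a log2 fold change of −0.26 (adjusted P = 0.534, limma), which was −0.12 without WT liver 1 and −0.40 without WT liver 2. C4b shares most of its sequence with C4a (Slp), which measured 6221 and 1824 in WT and 1935 and 4102 in LXRDKO, so reads of 1 can be counted on the other and their values are uncertain. C4a was high in 1 liver of each genotype. Cfb and C2 encode the protease subunits of the alternative and classical convertases and are adjacent on chromosome 17, 85 bases apart on the minus strand. Cfb measured 11449 and 9672 in WT and 9265 and 10004 in LXRDKO, and C2, the member with the lowest level, had 2255 and 2451 in WT against 2314 and 2114 in LXRDKO. The genotypes overlapped in both, at log2 fold changes of −0.13 and −0.088. Leaving out single libraries gave −0.25 to −0.0067 for Cfb and −0.15 to −0.023 for C2. A gene model on the same strand, Gm20547, overlaps both genes and has no row in the table.

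The terminal components build the membrane pore. C6, on chromosome 15, measured 27930.2 and 14438 normalized counts in WT and, in LXRDKO, 27059 and 30343. WT liver 2 stood alone at a low value, while WT liver 1 lay between the LXRDKO livers. Its log2 fold change, 0.51 with a standard error of 0.30 (adjusted P = 0.550, limma), ranged from 0.037 without WT liver 2 to 0.99 without WT liver 1. In the latter case C6 passed the threshold (adjusted P = 0.0225, limma), over a range of 0.0225 to 0.957 among all alternatives. The size of this difference thus rests on which WT library is kept.

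C9, which forms the wall of the pore and lies on the same chromosome as C6, measured 50652 and 34527 in WT and 37889.6 and 33676 in LXRDKO. WT liver 1 was the high liver and the remaining 3 were close. Its log2 fold change, −0.23 (adjusted P = 0.699, limma), turned with WT liver 1 left out, to 0.049. All 6 terminal genes were higher in WT liver 1 than in WT liver 2, with a median log2 difference of −0.31 for liver 2 against liver 1, whereas 3 of 6 were higher in LXRDKO liver 1 than in LXRDKO liver 2. Over all 16 complement members, 12 were higher in WT liver 1, as were 15 of 19 coagulation members, 2322 of the 3720 genes of at least the least abundant member's level and 7865 of 15578 genes tested.

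The C8 protein is assembled from 3 chains. C8a and C8b, 11.1 kb apart on chromosome 4 on opposite strands, encode the α and β chains. C8a counts were 67981 and 60179 in WT against 57551 and 57002 in LXRDKO, and C8b counts 32295 and 26141 in WT against 28725 and 29158 in LXRDKO. In C8a the LXRDKO livers lay under the WT livers, and the genotypes overlapped in C8b. Their log2 fold changes were −0.16 (−0.071 without WT liver 1 and −0.25 without WT liver 2) and −0.0057, and C8g, on chromosome 2, had −0.091. Per kilobase of exon the chains kept a like order in every liver, with C8a at 46.0%, 47.7%, 43.8% and 45.8% of the summed level in WT livers 1 and 2 and LXRDKO livers 1 and 2. C8b made up 31.2% and 29.6% in WT and 31.3% and 33.4% in LXRDKO. The C8a share was lower and the C8b share higher in each LXRDKO liver, though C8b was almost equal in liver 1 of each genotype, and the difference was not tested. C8g overlapped, from 20.8% to 24.9%. Hc, the mouse C5 gene, overlapped between genotypes at a log2 fold change of −0.072 (−0.47 to 0.33).

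Of the complement groups, the inhibitors had the smallest median ratio of highest to lowest liver, at 1.14. Serping1 encodes C1 inhibitor, which also blocks kallikrein and factor XIIa, and was among the 3 most abundant complement members per kilobase together with C3 and Mbl2. It measured 66576 and 62272 in WT and 57052 and 57255 in LXRDKO. Cfi, the protease that degrades C3b and C4b proteins, had 47359 and 48451 in WT against 43651 and 43789 in LXRDKO. In each gene the LXRDKO livers were almost equal and just below the WT livers. The log2 fold changes were −0.17 (95% interval −0.47 to 0.13) and −0.13 (−0.40 to 0.14), and neither passed the limma test (adjusted P = 0.619 and 0.674). As a share of all normalized counts, the 16 complement members took 1.84% and 1.89% in WT and 1.88% and 1.86% in LXRDKO.

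**Figure D2:**
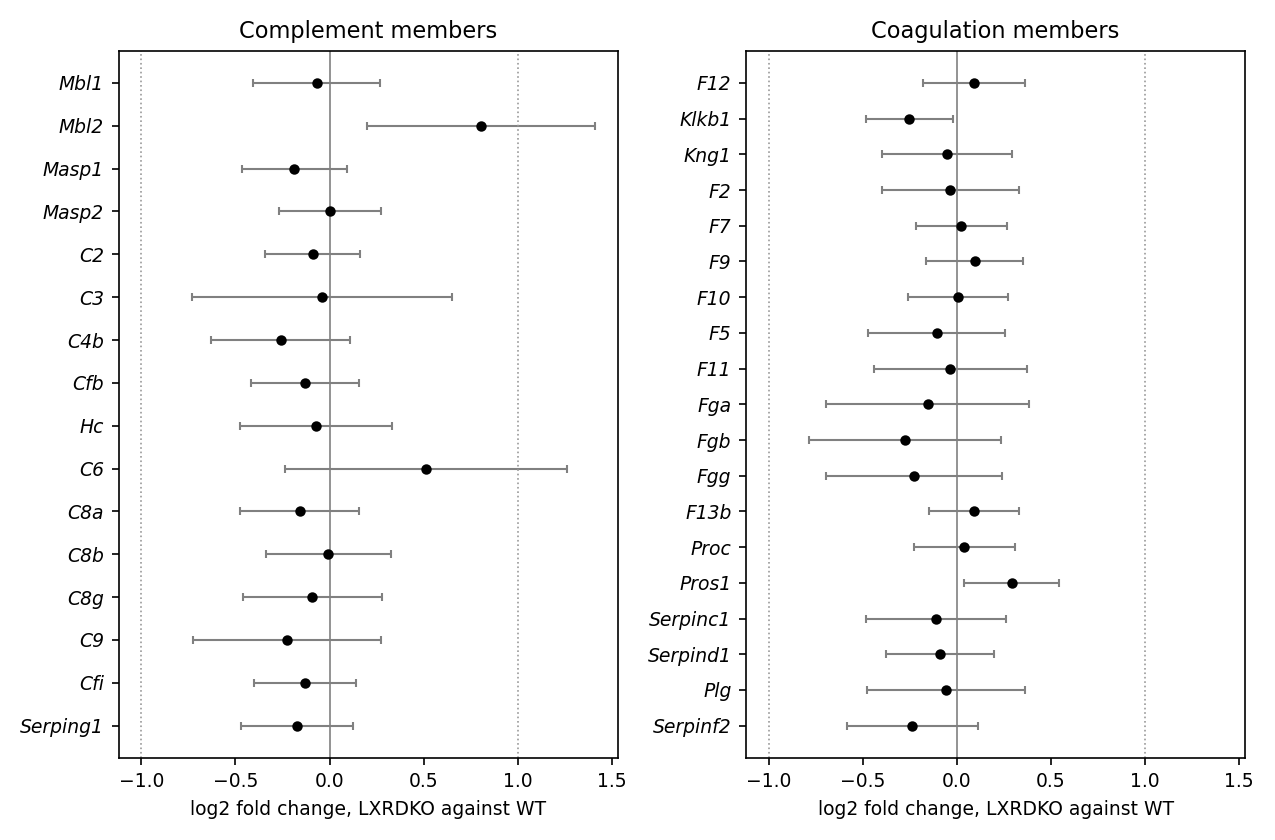
Log2 fold change of each member, LXRDKO against WT (2 livers each), with its 95% interval from limma as the horizontal bar. Dotted lines stand at −1 and 1. The intervals of Mbl2 and C6 reach past 1, to 1.41 and 1.26, and those of the other 33 members lie inside the dotted lines.

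Coagulation members varied less between livers than complement members, as a description without a test. The highest liver was at most 1.38 times the lowest in any coagulation member, and up to 2.50 times in complement. The medians of this ratio were 1.16 and 1.24, beside 1.21 over genes of at least the least abundant member's level and 1.35 over all genes tested. Within WT, the median absolute log2 difference between the livers was 0.055 for coagulation and 0.24 for complement. Within LXRDKO the medians were equal at this rounding, at 0.11 and 0.11.

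Contact-phase genes start clotting on charged surfaces. Klkb1, which encodes plasma prekallikrein, measured 11682 and 11235 normalized counts in WT and, in LXRDKO, 9999.7 and 9248. LXRDKO was lower without overlap, by more than the gap within either genotype. Its log2 fold change was −0.25 (standard error 0.092, 95% interval −0.48 to −0.023, adjusted P = 0.338, limma), and it lay between −0.31 and −0.20 in every alternative tried, none of which called it. Its neighbour F11, which encodes the factor XI protease and lies 4.7 kb away on chromosome 8 on the same strand, measured 9529 and 6902 in WT and 7644 and 8197 in LXRDKO. The genotypes overlapped in F11, whose log2 fold change was −0.035.

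F12 (factor XII) had a log2 fold change of 0.093 and Kng1 (kininogen, all transcripts of the gene counted together) of −0.051. Single libraries left out moved F12 between 0.044 and 0.14 and Kng1 between −0.080 and −0.022. Kng1 was 9.41 and 7.67 times its close paralog Kng2 in the WT livers and 8.41 and 8.15 times in the LXRDKO livers, with reads that the paralogs may share.

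The vitamin K-dependent proteases had the smallest median absolute log2 fold change of any group of members, at 0.030. F7 and F10, 1.5 kb apart on chromosome 8, encode factor VII, which starts clotting with tissue factor, and factor X, which cleaves prothrombin. F7 measured 6578 and 6340.5 in WT and 6952 and 6198 in LXRDKO, and F10 had 28443 and 28042 in WT against 29799 and 26901 in LXRDKO. LXRDKO liver 1 was highest and LXRDKO liver 2 lowest in both genes, so the genotypes overlapped. Log2 fold changes were 0.024 (95% interval −0.22 to 0.26, limma) and 0.0036 (−0.26 to 0.27). F9 (factor IX) had 0.095 and F2, the prothrombin gene, −0.036 (−0.40 to 0.33). With single libraries left out F9 ran from 0.017 to 0.17 and F2 from −0.061 to −0.011. F2 lies 422.5 kb from the deleted Nr1h3 on chromosome 2, and its highest liver was 1.06 times its lowest. The cofactor gene F5 had a log2 fold change of −0.11 and, like F11, its highest value in WT liver 1.

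The fibrinogen chains were the most abundant clotting transcripts. Fgg, Fga and Fgb encode the γ, α and β chains and lie together on chromosome 3 from 83007724 to 83049863, with Fgg and Fga on the plus strand and Fgb on the minus strand. Per kilobase of exon, Fga stood at 101135, Fgg at 95747 and Fgb at 70269, the 3 highest levels among coagulation members.

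Fgb measured 297882 and 287366 normalized counts in WT and, in LXRDKO, 264632 and 221019.6. Fgg measured 228679 and 203338 in WT and 198176 and 171397 in LXRDKO. Fga measured 325759 and 314335 in WT and 317299 and 260273 in LXRDKO. LXRDKO liver 2 was the lowest liver for each chain. LXRDKO lay under WT without overlap in Fgb and Fgg, while in Fga LXRDKO liver 1 lay between the WT livers. The log2 fold changes were −0.27, −0.23 and −0.16, with 95% intervals of −0.79 to 0.24, −0.69 to 0.24 and −0.70 to 0.39 and adjusted P values of 0.643, 0.679 and 0.827 (limma). Without LXRDKO liver 2 they were −0.14, −0.12 and −0.012. With LXRDKO liver 1 left out Fga was at −0.30, and with WT liver 1 left out Fgg was at −0.14.

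Chain shares were close but did not overlap between genotypes for Fga and Fgb, a difference that was not tested. Per kilobase, Fga made up 36.6% and 37.7% of the summed fibrinogen level in WT and 39.1% and 38.2% in LXRDKO. Fgb made up 26.4% and 27.2% in WT and 25.8% and 25.6% in LXRDKO. The Fga share was thus higher and the Fgb share lower in each LXRDKO liver, while Fgg overlapped, from 35.1% to 37.0% over the 4 livers. F13b, the carrier subunit of the fibrin-crosslinking factor XIII, had a log2 fold change of 0.090, or 0.021 to 0.16 with single libraries left out. Fibrinogen weighed on the list's total, since the 19 coagulation members took 2.72% and 2.66% of the WT counts and 2.68% and 2.42% of the LXRDKO counts, and the 4 genes of fibrinogen and crosslinking took 1.36%, 1.32%, 1.31% and 1.10% in the same order of livers.

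The fibrinogen promoters are shown because the genes lie together and LXRDKO liver 2 was the lowest liver for each of them. They are the 250 bases before each start, Fga at chr3:83025903-83026152 on the plus strand, Fgb at chr3:83049864-83050113 on the minus strand and Fgg at chr3:83007474-83007723 on the plus strand. Capitals mark matches on either strand to 3 motifs of liver factors, the HNF1 core GTTAAT, the C/EBP motif TTNNGCAA and the STAT motif TTCNNNGAA. Fga and Fgb each held all 3 and Fgg none, and no match overlapped that of another motif. The RefSeq start of Fga lies downstream of the start of its GENCODE gene model (83026076), so the last bases shown for Fga, its HNF1 match included, are within that model.
Fga: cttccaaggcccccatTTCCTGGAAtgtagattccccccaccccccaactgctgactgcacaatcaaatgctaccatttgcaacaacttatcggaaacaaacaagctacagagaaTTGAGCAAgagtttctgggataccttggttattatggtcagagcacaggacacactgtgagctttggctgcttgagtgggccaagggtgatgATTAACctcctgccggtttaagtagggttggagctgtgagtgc
Fgb: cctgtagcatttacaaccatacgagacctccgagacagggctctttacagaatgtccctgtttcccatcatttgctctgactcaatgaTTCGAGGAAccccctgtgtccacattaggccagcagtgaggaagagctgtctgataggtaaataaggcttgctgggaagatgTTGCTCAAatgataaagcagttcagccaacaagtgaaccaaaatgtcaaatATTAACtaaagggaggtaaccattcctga
Fgg: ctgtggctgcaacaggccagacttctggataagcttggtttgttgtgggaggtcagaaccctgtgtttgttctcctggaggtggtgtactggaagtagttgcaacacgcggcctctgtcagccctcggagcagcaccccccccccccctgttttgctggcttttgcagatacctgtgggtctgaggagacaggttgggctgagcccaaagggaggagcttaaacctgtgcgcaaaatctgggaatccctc

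Over the 300-base windows of the 26 members with an entry, the HNF1 core was in 7 (26.9%) against 7.20% of all 27025 promoters. The C/EBP motif was in 8 (30.8%) against 10.8%, and the STAT motif in 6 (23.1%) against 8.47%. The NF-Y motif CCAAT was in 7 members (26.9%) against 37.9%, and TATAAA in 3 (11.5%) against 14.2%. An HNF4 motif, CAAAGTCCA, was in 0 members and in 0.477% of promoters. A DR4 element of exact repeats, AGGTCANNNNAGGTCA, the classical LXR motif, was in 0 members and in 3 of all promoters (0.0111%). At shares this low over all promoters, 0 of 26 members tells nothing about HNF4 or LXR sites at these genes. The paper also states that many important LXR elements differ from a perfect DR4, and an exact search misses those. A match is a string of letters and was not tested as a binding site.

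Among the anticoagulants, Pros1 had the largest absolute log2 fold change of the coagulation members. It encodes protein S, the cofactor of activated protein C. Pros1 measured 4802 and 4989 normalized counts in WT and, in LXRDKO, 5606 and 6402. LXRDKO was higher, again without overlap. The difference was 0.29 on the log2 scale (standard error 0.10, 95% interval 0.040 to 0.54, adjusted P = 0.318, limma), it was not called in any setting, and it lay between 0.20 and 0.39 in every alternative. Proc, the gene of protein C itself, had 0.038 with overlapping genotypes. Serpinc1 (antithrombin) had −0.11 and Serpind1 (heparin cofactor II) −0.090. The Serpind1 value lay between −0.16 and −0.015 with single libraries left out.

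In fibrinolysis, Serpinf2, which encodes the plasmin inhibitor α2-antiplasmin, measured 48609.5 and 50075 in WT and 46428 and 37737 in LXRDKO. LXRDKO liver 2 was well below the rest and LXRDKO liver 1 just below the WT livers. Its log2 fold change was −0.24 (95% interval −0.59 to 0.11, adjusted P = 0.550, limma), and without LXRDKO liver 2 it was −0.088. Plg, the plasminogen gene, had −0.059 (−0.48 to 0.36).

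Other genes of the pathways, 36 for complement and 30 for coagulation, are made in part by other cells. Of the 36, 33 were tested and limma called 0, with 9 at an unadjusted P value under 0.05 (13.3% of all genes), while edgeR called 0 and DESeq2 called 4, all of them lower in LXRDKO (2.03% of all genes). Of the 30, 28 were tested and limma, edgeR and DESeq2 each called 0, with 4 at an unadjusted limma P value under 0.05.

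Vsig4 encodes a complement receptor of Kupffer cells that binds C3b. It measured 763 and 838 normalized counts in WT and, in LXRDKO, 194 and 84.7, a log2 fold change of −2.63 (adjusted P = 0.0893, limma, and 6.82e-11, DESeq2). Leaving out WT liver 1 took the adjusted P of limma to 0.0430, within a range of 6.82e-11 to 0.265 over all settings. Cfp (properdin), which stabilizes the alternative convertase and is made by leukocytes, measured 926 and 998 in WT and 577 and 289 in LXRDKO, −1.23 on the log2 scale (adjusted P = 0.218, limma, and 0.00754, DESeq2, range 0.00754 to 0.379). The Cfp value was −0.74 without LXRDKO liver 2. Neither gene overlapped between genotypes, and LXRDKO liver 2 was the lowest in each.

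Many Kupffer cell markers were also lower. Of 10 markers, Vsig4 among them, limma called Clec4f, Cd5l, Marco and Cd163 as lower, DESeq2 called these and Timd4 and Vsig4, and 3 markers (Csf1r, Lyz2 and Cd68) had a log2 fold change above 0. Lyz2, the lysozyme gene, was higher in each LXRDKO liver, at 1159 and 1363 in WT against 2289 and 1580.1 in LXRDKO (log2 fold change 0.60, adjusted P = 0.303, limma). The Lyz2 value ran from 0.33 to 0.86 with single libraries left out. The list summed to 12688 and 13864 normalized counts in WT and to 7739.7 and 4618 in LXRDKO. Its most abundant gene, Csf1r, had 2291 and 2578 in WT against 3477 and 1826 in LXRDKO, and overlapped between genotypes. Among the defining markers Timd4 was at 4.75 and 0 in the LXRDKO livers against 266 and 288 in WT, and Cd5l at 11.4 and 12.9 against 2779.7 and 3293. Clec4f measured 3309 and 3369 in WT and 575 and 333 in LXRDKO, Marco 275 and 491 in WT against 47.5 and 41.8 in LXRDKO, and Cd163 939 and 524 in WT against 27.5 and 19.3 in LXRDKO. The limma calls of Cd163 and Marco were lost without LXRDKO liver 1 (adjusted P = 0.107 and 0.199) or 2 (0.102 and 0.216), and limma called Timd4 without WT liver 1 (0.0312) or 2 (0.0413), with the replicate number as a block (0.0355) and with 8 added before the log (0.0132), as did edgeR (0.0390). Without the trend limma lost Clec4f (0.219), Cd163 (0.212) and Marco (0.219), and Marco was also lost with the filter at 50 (0.0586) and with upper-quartile (0.0509) or library-total scaling (0.0522). The adjusted P of Timd4 reached 0.232 over all settings. In bulk tissue, fewer cells of a type and less RNA per cell cannot be told apart, and their part in the values of Vsig4 and Cfp was not tested.

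C1q, the sensor of the classical pathway and another macrophage product, overlapped between genotypes. C1qb measured 1576 and 1759.5 in WT and 2254 and 1331 in LXRDKO, and C1qa and C1qc had log2 fold changes of −0.19 and −0.29 (adjusted P = 0.737 and 0.705, limma), which were 0.068 and 0.092 without LXRDKO liver 2. LXRDKO liver 2 was the lowest liver in each of these 3 genes.

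The membrane regulators Cd59a, which blocks pore assembly, and Cd55, which speeds convertase decay, were also called by DESeq2. Cd59a measured 2107 and 1692 in WT and 906 and 876 in LXRDKO, a log2 fold change of −1.08 (adjusted P = 0.0615, limma, and 2.08e-07, DESeq2). Limma called Cd59a without WT liver 1 (0.0390) or 2 (0.0183), and with the replicate number as a block (0.0479), over a range of 2.08e-07 to 0.257. Cd55 measured 469 and 427 in WT and 293 and 226 in LXRDKO, a log2 fold change of −0.79 (adjusted P = 0.182, limma, and 0.0337, DESeq2). In both genes the LXRDKO livers lay below the WT livers by more than the gap within either genotype. Among uncalled genes of the list, the largest absolute log2 fold changes were those of the receptor genes C5ar1 (21.7 and 38.2 in WT and 116 and 56.8 in LXRDKO) and Itgax (57.0 and 132 in WT against 249 and 200.5 in LXRDKO), both higher in each LXRDKO liver at low counts. Without WT liver 2 limma called Itgax (adjusted P = 0.0358, range 0.0358 to 0.602).

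Of the other coagulation genes, the largest log2 fold changes belonged to genes with few reads. F13a1, the catalytic subunit of factor XIII, measured 6.84 and 7.64 normalized counts in WT and, in LXRDKO, 26.6 and 19.3, at 1.52. Serpina5 (protein C inhibitor) had 16.0 and 17.0 in WT against 32.3 and 71.8 in LXRDKO, at 1.49. Both were higher in each LXRDKO liver, and Serpina5 was at 0.93 without LXRDKO liver 2.

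F8, the factor VIII gene, is transcribed in sinusoidal endothelium. It measured 859 and 659.5 in WT and 482 and 549 in LXRDKO, both LXRDKO livers being lower, at a log2 fold change of −0.55 (adjusted P = 0.287, limma), or −0.36 without WT liver 1. Of 8 sinusoidal endothelial markers, 7 had a log2 fold change below 0, as did 7929 of all 15578 genes tested. Among these markers only Kdr was called by limma and DESeq2, at 2447 and 2164 in WT and 1116 and 934 in LXRDKO (adjusted P = 0.0498, limma). Without LXRDKO liver 1 or 2 its adjusted P value was 0.151 or 0.202, and the call was also lost with 0.5 added before the log (0.0501), with no filter (0.0588) or one at 50 (0.0622), with upper-quartile (0.0557) or library-total scaling (0.0518) and without the trend (0.223), over a range of 4.00e-09 to 0.223. The 8 summed to 14968 and 13785 in WT and to 12385 and 9497 in LXRDKO, none was at 0, and the most abundant, Stab1, had 3434 and 3362 in WT against 3583 and 2746 in LXRDKO. Their part in the F8 values was not tested.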

How the data were processed

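The libraries held captured mRNA and were prepared using a KAPA Stranded kit. The authors checked reads with FastQC, aligned them to mm10 with STAR 2.6.0c and normalized counts with DESeq2. The tool that counted reads, its strand setting and the annotation release are not given in the sources used here, so genes that overlap a member, such as Zbtb37 with Serpinc1 or Tardbp with Masp2, may share reads with it. The deposited signal is counts divided by 1 size factor per library (0.877 and 1.18 in WT, 1.05 and 0.933 in LXRDKO). All values (100%) were whole multiples of 1 read within 0.01 reads, so reads were recovered.

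The limma test (3.58.1, R 4.3.3) took the log2 of each value plus 1, used a variance trend, and covered the 15578 genes whose mean was 10 or more, with Benjamini-Hochberg adjustment and a threshold of 0.05. This scale understates the change of low genes. DESeq2 1.42.0 and edgeR 4.0.16 quasi-likelihood tests were run on recovered reads. The tests were checked on simulated data with 2 libraries of each genotype. The simulated spread between libraries was a set function of the mean and was not estimated from these livers. The shares called below therefore need not hold for the real data. Of genes changed by 1 on the log2 scale, limma called 61 of 99, edgeR 59 of 99 and DESeq2 54 of 100. Of genes changed by 2, they called 95 of 98, 97 of 98 and 88 of 100. Unchanged genes called numbered 17, 12 and 11. Members and the 14 lists (200 entries, 1 of which, Gp1bb, was not matched by symbol) were chosen with earlier results of these data known, so no list was tested. Positions came from GENCODE M21 (GRCm38), to which 24987 identifiers matched. Neighbours are members within 100 kb.

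Genes named with values are members called by limma or DESeq2, the 5 largest absolute log2 fold changes and the 3 highest levels per kilobase of each member list, and neighbouring members. For the other complement and coagulation genes they are called genes and genes among the 3 largest changes, and for other lists the called genes and the most abundant gene. The remaining members, the C1q genes, C4a, F8 and Lyz2 were added after their values were seen. The alternatives added 0.5 or 8 before the log, dropped the filter or raised it to 50, and used upper-quartile or library-total scaling, limma without the trend, DESeq2, edgeR, the replicate number as a block, and leaving out each library. ATAC-Seq was not analysed here.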

Additional observations from a re-analysis of the deposited data

How the results depend on the processing

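The number of genes called over all genes tested was 50 and moved by more than 1.5 times in several settings. It was 25 with the required mean count raised to 50, where fewer genes were tested, 1 without the trend in limma and 567 with DESeq2. With each library left out in turn it ranged from 2 without LXRDKO replicate 1 to 265 without WT replicate 1, where the lone library is assumed to vary like the others. The cause was not tested. Replicate numbers do not pair the mice, and the deviations of same-numbered libraries correlated at 0.0031 across 15578 genes. With the number as a block 90 genes were called, 0 of them members, and both list medians kept their values of −0.09 and −0.05.

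Complement members called went from 0 to 1 with DESeq2 (Mbl2), and from 0 to 1 with libraries left out (C6, without WT replicate 1). Coagulation members called stayed at 0 in every setting. The complement median ranged from −0.21, with WT replicate 2 left out, to 0.0078, with WT replicate 1 left out, and the coagulation median from −0.080 without LXRDKO replicate 1 to 0.0019 without WT replicate 1, and was 0.0036 with library-total scaling.

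Of 1046 log2 fold changes of named genes under the alternatives, 36 changed sign, 34 lost a call and 34 gained one. Library-total scaling, under which the median of all genes went from −0.0046 to 0.050, turned C3 to 0.015, C8b to 0.049, F2 to 0.019, F11 to 0.020 and Kng1 to 0.0036, and upper-quartile scaling turned Masp2 to −0.00057. With libraries left out, signs turned within ranges of −0.44 to 0.068 (C1qa), −0.32 to 0.44 (C1qb), −0.67 to 0.092 (C1qc), −0.13 to 0.056 (C3), −1.14 to 0.63 (C4a), −0.16 to 0.15 (C8b), −0.26 to 0.077 (C8g), −0.50 to 0.049 (C9), −0.41 to 0.52 (Csf1r), −0.25 to 0.038 (F5), −0.059 to 0.11 (F7), −0.070 to 0.077 (F10), −0.27 to 0.20 (F11), −0.23 to 0.087 (Hc), −0.081 to 0.087 (Masp2), −0.24 to 0.10 (Mbl1), −0.12 to 0.0019 (Plg), −0.033 to 0.11 (Proc), −0.095 to 0.62 (S100a9) and −0.31 to 0.077 (Stab1). None of these genes was called in any setting.

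The lowest value of a member in any liver was 2114 normalized counts (C2). Each group had 2 mice, and mouse and library cannot be told apart. Reads of paralogs (C4b and C4a, Kng1 and Kng2, the Serpina1 genes) and of overlapping genes are uncertain.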

Other observations

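Acute-phase genes are those whose products rise or fall in plasma during inflammation. A list of 15 genes outside the member lists held 11 such genes and 4 genes of IL-6 signalling. Of the 11, limma called 1, Orm2, as higher (0.321% of all genes in either direction). DESeq2 called 4 of the 11 as higher (1.56%) and 1 as lower (2.03%). Of the 4 signalling genes, limma and DESeq2 each called 0. Orm2 measured 584 and 654 normalized counts in WT and, in LXRDKO, 1495 and 1286, a log2 fold change of 1.16 (adjusted P = 0.0498, limma). Without LXRDKO liver 1 or 2 its adjusted P value was 0.211 or 0.183, and the call was also lost with 0.5 (0.0501) or 8 (0.05002) added before the log, with no filter (0.0588) or one at 50 (0.0622), with upper-quartile (0.0569) or library-total scaling (0.0518), without the trend (0.219) and with the replicate block (0.0601), over a range of 2.10e-08 to 0.219. Serpina3n measured 23193 and 18149.7 in WT and 38780.0 and 45430.3 in LXRDKO, Lcn2 265 and 609 in WT against 1490.2 and 2664 in LXRDKO, and Hp, the most abundant of the list, 173828 and 158434 in WT against 220866 and 242564 in LXRDKO. Apcs, the serum amyloid P gene, measured 3863 and 3927 in WT and 2362 and 2925 in LXRDKO. In the first 4 genes both LXRDKO livers were above both WT livers, and in Apcs both were below. Limma also called Serpina3n without WT liver 1 (adjusted P = 0.0155, range 7.22e-07 to 0.352) and Lcn2 without WT liver 2 (0.0127, range 0.0127 to 0.440) or with the replicate block (0.0138).

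Of 23 other secreted plasma proteins, limma, edgeR and DESeq2 each called 0, with 1 at an unadjusted limma P value under 0.05 and a median log2 fold change of 0.023. Of 12 hepatocyte transcription factors, limma and edgeR called 0, with 3 at an unadjusted P value under 0.05 (13.3% of all genes), and DESeq2, with 1.56% of all genes called as higher, called Hnf4a (44147 and 38999 in WT and 70769 and 56007 in LXRDKO, adjusted P = 0.0115) and Foxa2 (1293 and 1614 in WT against 2422 and 2294 in LXRDKO, adjusted P = 0.00319), both higher in each LXRDKO liver. Without WT liver 2, limma called Foxa2 too (adjusted P = 0.0473, range 0.00319 to 0.384). The 8 stellate markers summed to 13675 and 17089 in WT and 19772 and 22442 in LXRDKO, and DESeq2 called Dcn, the most abundant (5219 and 6248 in WT against 8316 and 9892 in LXRDKO), and Reln (3109 and 2656 in WT against 4007 and 4130.3 in LXRDKO) as higher. The 5 biliary markers summed to 2077 and 3582 in WT and 4553 and 5409 in LXRDKO, with Spp1 the most abundant (1433 and 2907 in WT against 3658 and 4299.7 in LXRDKO), and DESeq2 called Epcam (74.1 and 115 in WT against 216 and 224 in LXRDKO) as higher. Limma called 0 of either list, with 4 stellate and 3 biliary markers at an unadjusted P value under 0.05, counts that stand beside the same shares of all genes, and edgeR called 0. Without WT liver 2, limma called Spp1 (adjusted P = 0.0124, range 0.0124 to 0.683), and its log2 fold change ran from 0.45 to 1.47 with libraries left out. Platelet and neutrophil transcripts were scarce, with 4 matched platelet markers summing to between 224 and 257 and 5 neutrophil markers to between 18.2 and 30.0. The most abundant were Itga2b (209 and 219.8 in WT against 178 and 174 in LXRDKO) and S100a9 (6.84 and 11.9 in WT against 9.49 and 12.9 in LXRDKO), and Pf4 was called by DESeq2, and by limma without WT liver 2 (adjusted P = 0.0480, range 0.0440 to 0.579), at 6.84 and 20.4 in WT and 50.3 and 74.0 in LXRDKO.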
